A study of Mus musculus with 9 samples.

Results

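The genes described here encode the receptors by which neurons and glia read neurotransmitters and neuromodulators. They were chosen by gene symbol alone, with a pattern covering AMPA, NMDA, kainate, delta and metabotropic glutamate receptors (excitatory), GABA-A, GABA-B and glycine receptors (inhibitory), and nicotinic, muscarinic, serotonin, dopamine, adrenergic, adenosine, purine P2 and opioid receptors (modulatory). Of 126 symbols of the mouse annotation that match the pattern, 40 were listed in at least 1 of the 2 expression tables, among 12275 listed genes in all. They comprise 18 excitatory, 8 inhibitory and 14 modulatory receptor genes. The excitatory class holds all glutamate receptor families, including metabotropic receptors that lower transmitter release, such as Grm4. Its name does not state the action of each member. The BA vs AV table lists 28 of them and the BA vs AP table all 40. The other 86 symbols, including every serotonin and dopamine receptor gene, are not listed and were not analysed here.

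Ligand-gated receptors such as AMPA, NMDA, GABA-A and nicotinic receptors are channels assembled from several subunits, and the subunit genes a cell uses set how fast a channel opens and what it lets through. Metabotropic receptors such as mGluRs, GABA-B, muscarinic and P2Y receptors act through G proteins, on slower time scales. In the amygdala, NMDA receptors in principal neurons are known for their part in fear learning, and GABA-A receptors carry the fast inhibition that benzodiazepines strengthen.

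RNA was sequenced from cells sorted as YFP-positive pyramidal neurons of the amygdala, 1 library per mouse, in 9 mice of the line B6.Cg-Tg(Thy1-YFP)HJrs/J. All of these mice carried the same transgene, in which the Thy1 promoter drives yellow fluorescent protein (YFP), mostly in pyramidal neurons but also in some other neurons. The groups were not made by a treatment: the mice were selected for their spontaneous response to a conflict between food reward and an aversive bright arm, as balancing (BA), avoiding (AV) or approaching (AP), with 3 mice each, and were sacrificed 1 month after that task. Age was not given in the sources used here. AV replicate 2, which the authors removed as an outlier, was not used here. The values are a normalized signal per gene and mouse, in 1 table for 3 BA and 2 AV mice (replicates 1 and 3) and another for the same 3 BA mice and 3 AP mice. From the steps of 1 read described below, the AP table holds between 3817185 and 6720900 reads of each mouse, while for the AV table no depth could be derived. Each comparison was made within its own table, and since both share the BA mice, they are not independent of each other. Values of single mice are given below in the order of their replicate numbers.

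The label of pyramidal neurons was checked against marker genes. Of 10 excitatory neuron markers only Camk2a and Nrgn were listed in either table, and the vesicular glutamate transporters Slc17a7 and Slc17a6 were not. In the BA vs AV table the summed signal of the 2 excitatory neuron markers was between 67.1 and 93.0 in BA mice and between 1785 and 3096 in AV mice. The 7 listed oligodendrocyte lineage markers summed to between 179718 and 222609 in BA mice and between 51938 and 80544 in AV mice, and the 6 listed astrocyte markers to between 8894 and 14047 against between 29438 and 57054. Other marker sums of that table were between 237 and 354 in BA mice and between 722 and 939 in AV mice for 3 of 11 microglia markers, between 266 and 393 against between 168 and 169 for 3 of 5 endothelial markers, and between 6.42 and 11.9 against between 17.8 and 18.1 for Dlx1, the 1 listed of 8 inhibitory neuron markers. In such bulk samples, a change in the share of a cell type and a change in RNA per cell cannot be told apart, and the part of these markers in the receptor results was not tested.

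Reference promoters of 3 receptor genes are shown. Gabra4 rose in AV mice, Gria4 fell in AV mice, and P2ry12 values did not overlap between BA and AP mice. Such non-overlap held for 12.5% of the receptor genes of the BA vs AP table and for 12.1% of all its genes. P2ry12 did not pass the adjusted threshold used below (limma adjusted p = 0.379). Each promoter is RefSeq sequence of GRCm38.p6 on the minus strand, from 250 bases before to 50 bases after the RefSeq start, 5′ to 3′. In the order named, they lie at chr5:71658259-71658558, chr9:4796185-4796484 and chr3:59262936-59263235. The P2ry12 window lies wholly upstream of the gene span given below, which follows GENCODE. Capitals mark exact matches, on either strand, to the GC box (GGGCGG, read as CCGCCC on the other strand) and to the CCAAT box (CCAAT, read as ATTGG).
Gabra4: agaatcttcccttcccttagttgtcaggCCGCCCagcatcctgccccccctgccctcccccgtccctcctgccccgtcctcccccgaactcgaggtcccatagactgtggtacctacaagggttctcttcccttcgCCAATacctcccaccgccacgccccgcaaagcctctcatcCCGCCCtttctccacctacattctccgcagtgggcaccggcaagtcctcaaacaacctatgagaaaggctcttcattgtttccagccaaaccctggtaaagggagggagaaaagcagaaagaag
Gria4: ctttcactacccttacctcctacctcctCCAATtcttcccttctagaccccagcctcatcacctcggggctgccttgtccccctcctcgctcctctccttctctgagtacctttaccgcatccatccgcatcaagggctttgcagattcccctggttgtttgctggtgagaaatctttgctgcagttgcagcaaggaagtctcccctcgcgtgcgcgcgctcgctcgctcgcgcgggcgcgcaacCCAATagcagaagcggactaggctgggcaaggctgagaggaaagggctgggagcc
P2ry12: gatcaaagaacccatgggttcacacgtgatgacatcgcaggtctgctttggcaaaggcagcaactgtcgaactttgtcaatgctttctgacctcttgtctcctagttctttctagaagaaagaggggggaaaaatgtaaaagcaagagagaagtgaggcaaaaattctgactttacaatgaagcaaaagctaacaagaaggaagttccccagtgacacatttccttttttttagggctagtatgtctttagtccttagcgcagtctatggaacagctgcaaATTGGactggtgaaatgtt
No match to 1 motif overlapped a match to the other in these windows. The Gabra4 window holds 2 GC boxes and 1 CCAAT box, that of Gria4 no GC box and 2 CCAAT boxes, and that of P2ry12 no GC box and 1 CCAAT box. Promoters were matched for 29 of the 40 receptor genes. A GC box was present in 20 of these 29 windows, 69.0%, and in 35.7% of all 32851 promoters, and a CCAAT box in 9 of 29, 31.0%, and in 37.4% of all. Of the 9 matched genes that rose in AV mice, 8 held a GC box and 3 a CCAAT box. These are matches of letters, not measured binding.

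Between BA and AV mice, 17 of the 28 listed receptor genes differed at a Benjamini-Hochberg adjusted p under 0.05 in limma, fitted on log2(value + 1) over all 9872 listed genes. Expression was higher in AV mice for 14 of them, and lower for 3, among them Gria4 and P2rx4. Over all genes, 29.7% were called in this comparison, 13.6% higher and 16.2% lower. The median log2 fold change, AV over BA, was 1.16 over the receptor genes and -0.026 over all genes. Values of BA and AV mice did not overlap for 24 of the 28 receptor genes, 16 higher and 8 lower in AV mice, where 58.9% of all genes did not overlap, 27.7% higher and 31.3% lower. The log2 fold change was above 0 for 19 of the 28, and for 48.5% of all genes. At an unadjusted p under 0.05 in limma, 14 were higher and 6 lower, where 43.2% of all genes passed, 20.2% higher and 23% lower. By class, 8 excitatory receptor genes rose and 2 fell of 17 listed, 5 inhibitory ones rose and none fell of 8, and Chrna4 rose and P2rx4 fell among 3 modulatory ones. The plot of receptor levels by mouse in the BA vs AV table shows these values for 27 of the genes.

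**Figure D1:**
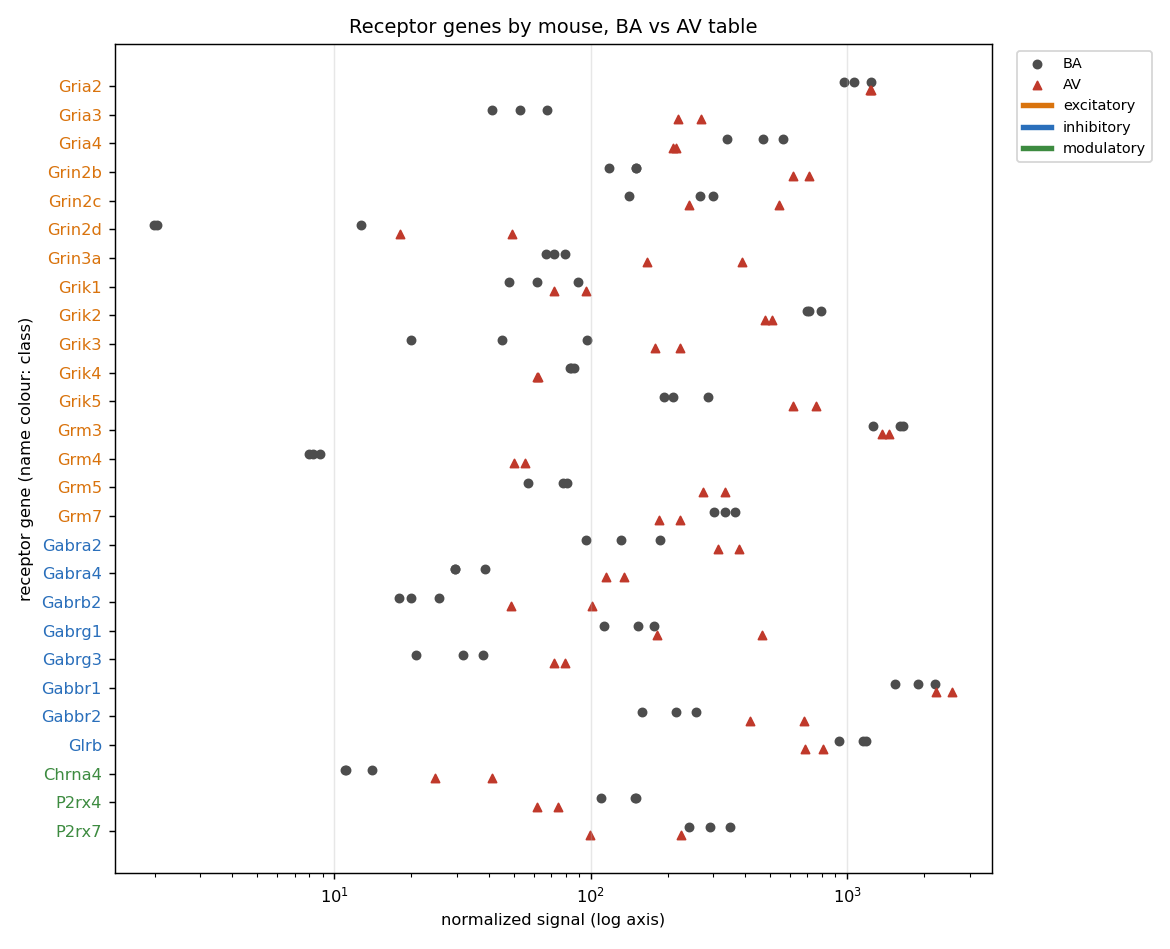
Normalized signal (log axis) of 27 of the 28 receptor genes in the 3 BA mice (circles) and the 2 AV mice (triangles) of the BA vs AV table, with gene names coloured by class. Values of the groups do not overlap for 23 of these, of which 16 are higher and 7 lower in AV mice.

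The count of called receptor genes depended on single mice. It was 10, 8 and 11 without BA replicate 1, 2 and 3, 19 without AV replicate 1 and 16 without AV replicate 3. With 1 AV mouse left out, the lone AV mouse is assumed to vary like the others. Gria3, Grin2b, Grik5, Grm4, Grm5 and Gabra4 were called in each of these 5 fits. Of these genes, Grik5 was not called with the replicate number as a block. The median log2 fold change of the receptor genes was 0.65 without AV replicate 3 and 1.25 without AV replicate 1. That of the excitatory class, 0.69 with all mice, was 0.18 without AV replicate 3 and 1.27 without AV replicate 1, and that of the inhibitory class was 1.35 with all mice and between 1.14 and 1.43 without any 1 of them.

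AMPA receptors, which carry most fast excitatory transmission, were represented by Gria2, Gria3 and Gria4, and these moved in different directions in AV mice. Gria3 (chromosome X from 41400854 to 41678601 of GRCm38) stood at 52.8, 67.4 and 41.3 in the BA mice and at 219 and 270 in the AV mice. Both AV mice lay above every BA mouse, and the log2 fold change was 2.18 ± 0.28 (SE; limma adjusted p = 0.00395). Gria4 (chromosome 9 from 4417896 to 4796234), whose subunit gives channels with fast kinetics, stood at 339, 564 and 469 in BA mice and at 210 and 216 in AV mice. Every BA mouse lay above both of these, and the log2 fold change was -1.07 ± 0.27 (limma adjusted p = 0.0276). This call was lost without BA replicate 2 or 3, at adjusted p of 0.0905 and 0.0857 in limma. Gria2, whose edited subunit keeps calcium out of the channel, stood at 1060, 974 and 1238 in BA mice and at 1227 and 1239 in AV mice, where the groups overlap (log2 fold change 0.18 ± 0.22, limma adjusted p = 0.559). Per kb of exon, which allows levels to be compared between genes, Gria3 made up 3.72 ± 0.93% of the signal of the 3 genes in BA mice (mean ± SD, n = 3) and 18.0 ± 1.98% in AV mice (n = 2). The share of Gria4 was 48.5 ± 7.13% in BA mice and 24.5 ± 0.37% in AV mice, and that of Gria2 47.8 ± 7.39% and 57.6 ± 1.62%. With 3 mice against 2, an exact permutation test of such a share cannot give a p below 0.1, so the shares are given as a description.

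NMDA receptors, which need both glutamate and depolarization to open, were represented by 4 subunit genes, and 3 of them rose in AV mice. Grin2b (chromosome 6 from 135713233 to 136173511), a subunit prominent in forebrain and in development, stood at 151, 118 and 150 in BA mice and at 707 and 613 in AV mice. The groups were far apart, with a log2 fold change of 2.24 ± 0.23 (limma adjusted p = 0.00314). Grin2d stood at 1.99, 12.7 and 2.03 in BA mice and at 18.1 and 49.2 in AV mice. In the BA vs AP table BA replicates 1 and 3 have 0 and 1 reads of this gene, so the log2 fold change of 2.63 ± 0.74 (limma adjusted p = 0.0370), the largest among the receptor genes, depends on the constant added before the logarithm and is not a bound. Without BA replicate 1 or 3 or AV replicate 3 it was 2.26, 2.27 and 1.94 and not called (limma adjusted p = 0.120, 0.113 and 0.0573), and without BA replicate 2 or AV replicate 1 it was 3.36 and 3.33. Grin3a, whose subunit lowers the calcium entry of the channel, stood at 72.1, 67.1 and 79.4 in BA mice and at 166 and 390 in AV mice. Its AV values differed from each other by more than the BA values did, and the log2 fold change of 1.79 ± 0.37 (limma adjusted p = 0.0136) was 1.18 without AV replicate 3 and 2.41 without AV replicate 1. The call of Grin3a was lost without BA replicate 1 or 2, at limma adjusted p of 0.0549 and 0.0594. Grin2c was the NMDA receptor gene with the highest signal per kb in BA mice, and its values of 299, 141 and 268 in BA mice overlapped those of 241 and 543 in AV mice (log2 fold change 0.69, limma adjusted p = 0.289). It was called without AV replicate 1, at 1.27 (limma adjusted p = 0.0390), and was 0.10 without AV replicate 3 (limma adjusted p = 0.867) and 0.35 without BA replicate 2 (limma adjusted p = 0.604). Grin1 and Grin2a are among the symbols not listed, so the obligatory NMDA receptor subunit was not analysed here.

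All 5 kainate receptor genes were listed. Grik3 stood at 44.9, 96.3 and 19.9 in BA mice and at 178 and 223 in AV mice, and the groups did not overlap despite the wide spread of BA mice (log2 fold change 2.14 ± 0.59, limma adjusted p = 0.0345). Without BA replicate 1 or 3 it was not called (limma adjusted p = 0.101 and 0.0562). Grik5 (chromosome 7 from 25009849 to 25072346), a subunit that raises the affinity for glutamate, stood at 288, 193 and 209 in BA mice and at 612 and 758 in AV mice. Both AV mice exceeded every BA mouse, with a log2 fold change of 1.59 ± 0.26 (limma adjusted p = 0.00696). Grik2, a pore-forming subunit that can assemble with the Grik5 product, stood at 713, 791 and 698 in BA mice and at 479 and 511 in AV mice. Its values did not overlap, but the log2 fold change of -0.56 did not pass the threshold (limma adjusted p = 0.0846). The share of Grik2 in the kainate receptor signal per kb was 42.7 ± 2.89% in BA mice and 17.5 ± 1.45% in AV mice, and that of Grik5 34.1 ± 6.44% and 61.5 ± 1.35%. Grik4 stood at 82.7, 86.1 and 83.4 in BA mice and at 62.2 and 61.9 in AV mice, without passing the threshold (log2 fold change -0.43, limma adjusted p = 0.152), and Grik1 overlapped between the groups. The plot of family shares shows both families mouse by mouse.

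**Figure D2:**
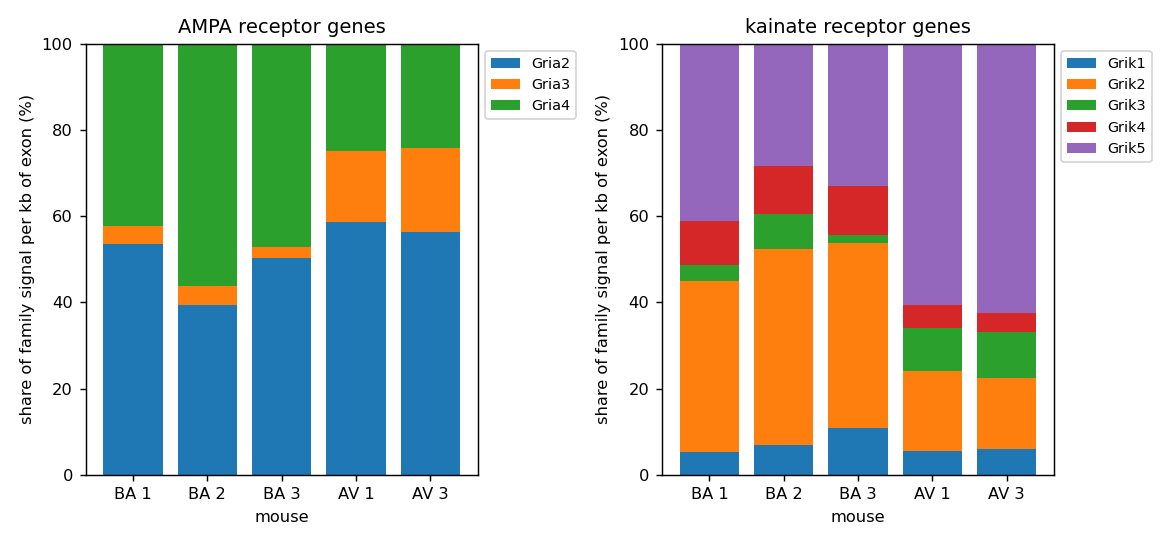
Share (%) of each AMPA receptor gene (left) and kainate receptor gene (right) in the summed signal per kb of exon of its family, for each BA and AV mouse of the BA vs AV table. Gria3 lies between 2.64% and 4.30% in BA mice and at 16.6% and 19.4% in AV mice, and Grik5 between 28.4% and 41.1% and at 60.6% and 62.5%.

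Of the metabotropic glutamate receptor genes, Grm4 and Grm5 rose. Grm4 (chromosome 17 from 27422387 to 27521403), a presynaptic receptor that lowers transmitter release, stood at 7.96, 8.23 and 8.80 in BA mice and at 50.3 and 55.2 in AV mice. Both groups were tight, and the log2 fold change was 2.53 ± 0.21 (limma adjusted p = 0.00256). Grm5 (chromosome 7 from 87584168 to 88134907), a postsynaptic receptor that signals through calcium release, stood at 78.3, 80.9 and 56.8 in BA mice and at 274 and 335 in AV mice (log2 fold change 2.07 ± 0.26, limma adjusted p = 0.00366). Here too both AV mice were above all BA mice. Grm3, an inhibitory receptor that astrocytes also carry, had the highest signal per kb of all receptor genes in BA mice, 494, higher than 98.6% of listed genes. Its signal was 1261, 1654 and 1608 in BA mice and 1366 and 1461 in AV mice, where the groups overlap (log2 fold change -0.083, 95% interval -0.63 to 0.47, limma adjusted p = 0.810). Grm7 stood at 365, 303 and 333 in BA mice and at 223 and 184 in AV mice. Its groups did not overlap and its log2 fold change of -0.71 lay next to the threshold (limma adjusted p = 0.0535), which it passed without AV replicate 1 (limma adjusted p = 0.0481).

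Among inhibitory receptor genes, 5 of 8 rose in AV mice. GABA-A receptors are chloride channels, and 4 of the 5 listed subunit genes rose in AV mice. Gabra4 (chromosome 5 from 71569749 to 71658308), whose promoter is printed above and whose subunit serves mostly extrasynaptic receptors, stood at 38.6, 29.4 and 29.4 in BA mice and at 115 and 134 in AV mice. Both AV mice exceeded every BA mouse, with a log2 fold change of 1.91 ± 0.24 (limma adjusted p = 0.00372). Gabrb2 stood at 17.9, 19.9 and 25.6 in BA mice and at 101 and 48.7 in AV mice (log2 fold change 1.70 ± 0.35, limma adjusted p = 0.0135), and Gabrg3 at 38.0, 31.7 and 20.9 and at 71.8 and 79.2 (log2 fold change 1.33 ± 0.30, limma adjusted p = 0.0172). Neither gene overlapped between groups, but Gabrb2 was not called without BA replicate 1 or 2 (limma adjusted p = 0.0575 and 0.0582), nor Gabrg3 without BA replicate 2 (limma adjusted p = 0.0582). Gabra2, the subunit tied to the anxiolytic action of benzodiazepines, stood at 132, 95.9 and 187 in BA mice and at 378 and 314 in AV mice (log2 fold change 1.36 ± 0.32, limma adjusted p = 0.0203). Its level is uncertain, because the same 3 BA mice have values 2.06 to 2.17 times higher in this table than in the BA vs AP table, while for the 27 other receptor genes in both tables this ratio lay between 0.628 and 0.995. Without BA replicate 1 or 2, Gabra2 was not called (limma adjusted p = 0.0707 and 0.0638). Gabrg1 stood at 153, 113 and 177 in BA mice and at 181 and 465 in AV mice, a difference that did not pass the threshold (log2 fold change 0.995, limma adjusted p = 0.120) except without AV replicate 1 (1.67, limma adjusted p = 0.00429). Without AV replicate 3 it was 0.32 (limma adjusted p = 0.481).

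GABA-B receptors are built from the products of Gabbr1, which binds GABA, and Gabbr2, which couples to G proteins. Gabbr2 rose in AV mice: it stood at 257, 159 and 215 in BA mice and at 418 and 676 in AV mice (log2 fold change 1.36 ± 0.32, limma adjusted p = 0.0203). The call was lost without BA replicate 2 or 3 (limma adjusted p = 0.0728 and 0.0608). Gabbr1 came next after Grm3 in signal per kb in BA mice, with 241, and stood at 2196, 1537 and 1891 in BA mice and at 2214 and 2567 in AV mice. The AV mice were above the BA mice by a narrow margin, and the log2 fold change of 0.36 did not pass the threshold (95% interval -0.22 to 0.95, limma adjusted p = 0.301). In signal per kb, Gabbr2 made up 11.4 ± 0.66% of the pair in BA mice and 20.7 ± 3.85% in AV mice. Glrb, the glycine receptor subunit that binds the scaffold gephyrin, stood at 926, 1182 and 1152 in BA mice and at 808 and 687 in AV mice. Both AV mice lay below every BA mouse, without passing the threshold (log2 fold change -0.54, limma adjusted p = 0.124).

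Only 3 modulatory receptor genes were listed in the BA vs AV table. Chrna4, a nicotinic receptor subunit, stood at 11.0, 11.1 and 14.1 in BA mice and at 24.7 and 41.2 in AV mice, above every BA mouse (log2 fold change 1.34 ± 0.28, limma adjusted p = 0.0148). It was not called without BA replicate 1 or 2 (limma adjusted p = 0.0595 and 0.0637). P2rx4, an ATP-gated channel also carried by microglia, stood at 110, 150 and 149 in BA mice and at 74.7 and 61.5 in AV mice (log2 fold change -0.98 ± 0.25, limma adjusted p = 0.0265). All BA mice were above both AV mice, but the call was lost without BA replicate 2 or 3 or AV replicate 3 (limma adjusted p = 0.0950, 0.0867 and 0.0580). P2rx7, another ATP-gated channel and the modulatory gene with the highest signal per kb in this table, stood at 348, 291 and 241 in BA mice and at 99.1 and 225 in AV mice (log2 fold change -0.95, limma adjusted p = 0.100). Without AV replicate 3 it was -1.54 and called (limma adjusted p = 0.00423), and without AV replicate 1 it was -0.36. The 3 listed microglia markers were all higher in AV mice. Of the 7 listed oligodendrocyte lineage markers, 6 had a log2 fold change below 0 and 1 above 0. All 3 listed endothelial markers had one below 0. The part of these markers in the P2X results was not tested.

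Genes for proteins that work with these receptors were counted in lists. Of 8 listed auxiliary subunits of AMPA and kainate receptors, 6 rose in AV mice and none fell, from Cnih3, Cacng4 and Shisa6 to Neto2, which had the largest log2 fold change, 1.91 (limma adjusted p = 0.0277). Of 12 listed scaffold genes of glutamate receptors, 10 rose and none fell, and the median log2 fold change was 1.92. The largest change was that of Shank2, 3.60 (limma adjusted p = 0.00278), and Dlg4, which encodes the postsynaptic density protein PSD-95, rose by 2.73 (limma adjusted p = 0.00288). Of 8 listed scaffold and auxiliary genes of inhibitory receptors, 3 rose and none fell, among them Shisa7 at 2.18 and Nlgn2 at 0.88 (limma adjusted p = 0.00711 and 0.0467). Gphn, the gene of gephyrin, stood at a mean of 424 in BA mice and 399 in AV mice (log2 fold change -0.078, limma adjusted p = 0.826). The background of 13.6% of all genes called higher applies to these counts as well.

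The BA vs AP comparison gave no called receptor gene. None of 40 passed the adjusted threshold in limma, in a comparison where 0.00846% of 11820 genes, a single gene, did. Without adjustment, at a limma p under 0.05, 7 of the 40 passed, 6 higher and 1 lower in AP mice, where 7.77% of all genes passed, 4.99% higher and 2.77% lower. Groups did not overlap for 5 receptor genes, where this held for 12.1% of all genes, 5.64% higher and 6.45% lower: Chrm4, P2ry6, P2ry12 and P2ry13 were higher in every AP mouse, and Grik4 was lower. The median log2 fold change, AP over BA, was 0.26 over the receptor genes and -0.032 over all genes, and it was above 0 for 28 of the 40 and for 46.5% of all genes. By class it was 0.17 for excitatory, 0.40 for inhibitory and 0.51 for modulatory genes. These medians rested on single mice: without AP replicate 1 they were 0.25, 0.91 and 0.67, and without AP replicate 3 they were 0.014, 0.24 and 0.22. The plot of log2 fold changes sets both comparisons side by side.

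**Figure D3:**
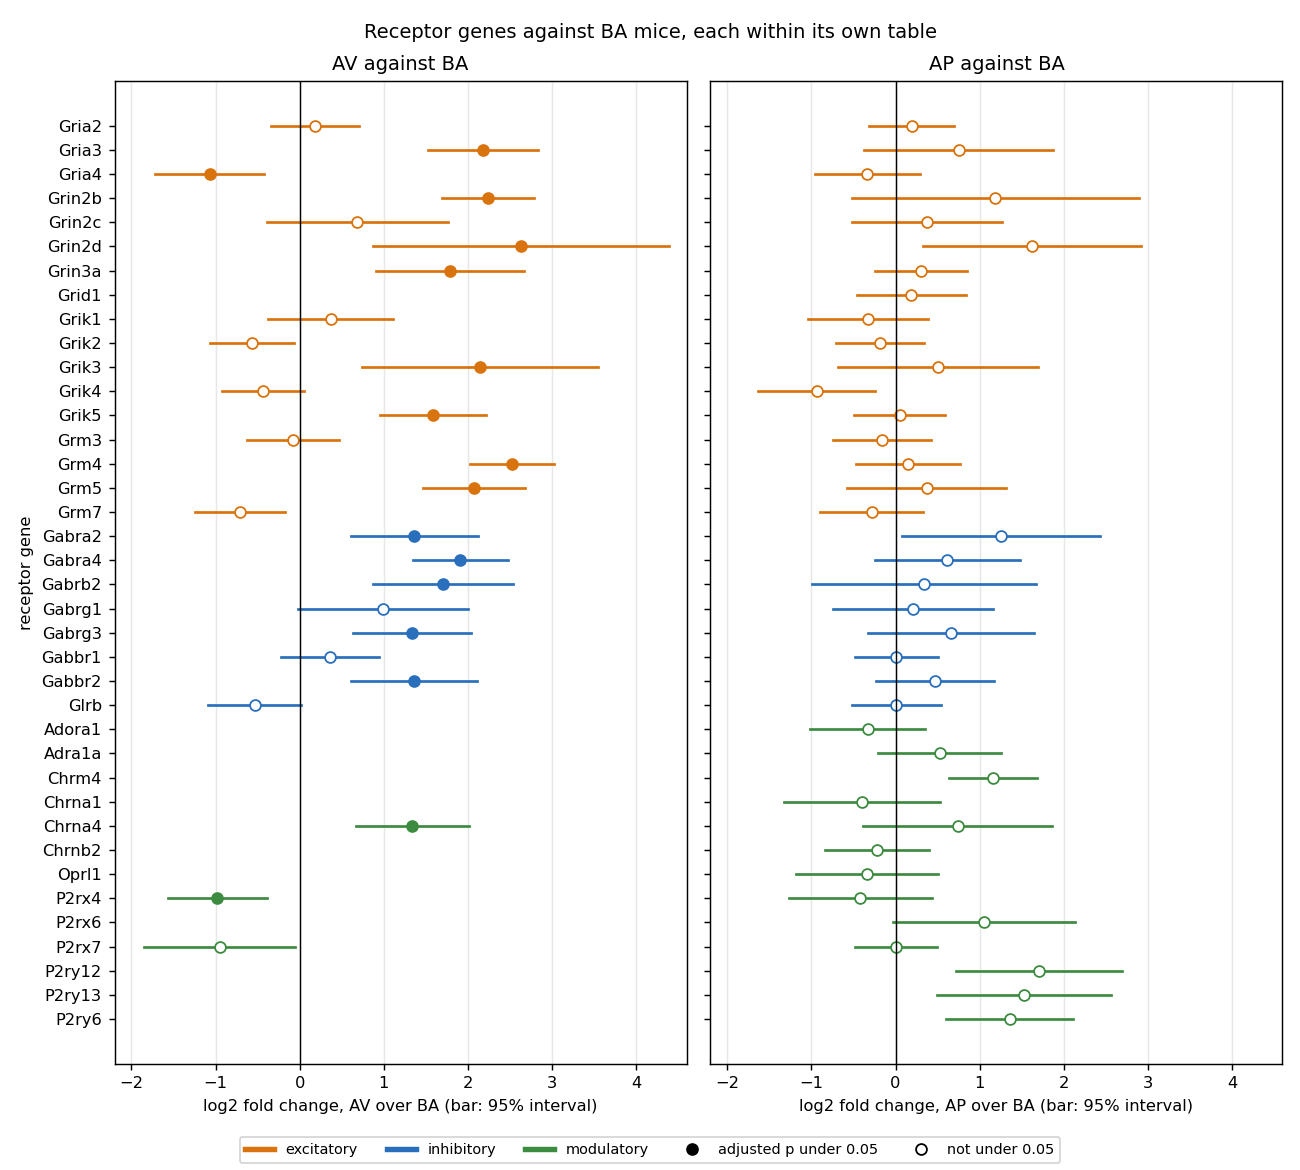
Log2 fold change with its 95% interval (limma) of 38 receptor genes, AV over BA (left) and AP over BA (right), with filled points for an adjusted p under 0.05. Of 27 genes on the left 16 are filled, from -1.07 to 2.63, and of 38 on the right none, from -0.94 to 1.70.

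P2Y receptors for nucleotides were among the receptor genes with the larger log2 fold changes in AP mice, as was Grin2d. P2ry12 (chromosome 3 from 59216272 to 59262871; promoter above), an ADP receptor that steers microglial processes, stood at 133, 161 and 348 in BA mice and at 577, 436 and 1035 in AP mice. Every AP mouse lay above every BA mouse, with a log2 fold change of 1.70 ± 0.43 (limma adjusted p = 0.379). P2ry13, its neighbour on the chromosome and also an ADP receptor, stood at 29.7, 34.8 and 96.4 in BA mice and at 140, 96.9 and 186 in AP mice (log2 fold change 1.53, limma adjusted p = 0.425). P2ry6, a UDP receptor linked to phagocytosis by microglia, stood at 22.2, 15.3 and 38.8 in BA mice and at 66.8, 55.8 and 64.7 in AP mice (log2 fold change 1.36, limma adjusted p = 0.349). BA replicate 3 was the highest BA mouse for all 3 genes, and for P2ry13 it lay just below the lowest AP mouse. Without it the limma adjusted p was 0.119, 0.0948 and 0.0948 for P2ry12, P2ry13 and P2ry6. Among the 11 microglia markers, 10 were listed here, and each of these was higher in every AP mouse than in every BA mouse. Their summed signal was 1523, 1375 and 2754 in BA mice and 4937, 3755 and 6290 in AP mice, so it was also highest in BA replicate 3 among BA mice. The part of these markers in the P2Y results was not tested. P2rx7 and P2rx4, which are also listed as characteristic of microglia, overlapped between the groups: P2rx7 had a log2 fold change of 0.0085 (95% interval -0.48 to 0.49, limma adjusted p = 0.994), and P2rx4 of -0.42 (limma adjusted p = 0.784). The plot of P2Y receptors beside the microglia markers shows the single mice.

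**Figure D4:**
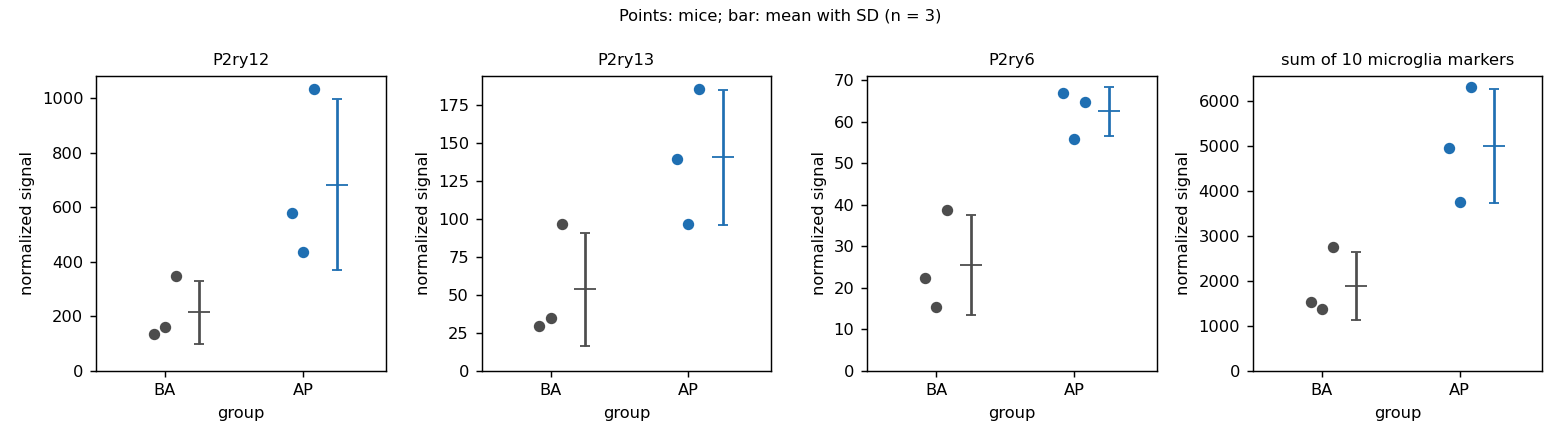
Normalized signal of P2ry12, P2ry13, P2ry6 and the sum of 10 microglia markers in single BA and AP mice (points) with mean and SD (bars, n = 3). In each panel the AP mice lie above all BA mice, and the BA mouse nearest to them is replicate 3.

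Among the other modulatory receptors, Chrm4 had the lowest unadjusted p of all receptor genes, 0.000847 in limma (adjusted p = 0.248). Chrm4, an inhibitory muscarinic receptor, stood at 5.20, 4.05 and 3.23 in BA mice and at 11.1, 10.5 and 9.57 in AP mice. In this table values lie on steps of 1 read above a lowest value of 2, and these values stand for 3, 2 and 1 reads in BA mice and 8, 12 and 7 in AP mice. Relative to the reads behind each group, this is a ratio of 3.88 with a 95% counting interval from 1.57 to 11.5, which covers counting error only. Chrm4 is not listed in the BA vs AV table, which holds the same BA mice. It may have passed the authors' filter on low counts only through the AP mice. Such a selection would favour a high ratio, a low p and groups that do not overlap, so these values are given as a description. Adora1, the main inhibitory adenosine receptor, had the highest signal per kb of the modulatory genes of this table and stood at 581, 766 and 368 in BA mice and at 497, 435 and 380 in AP mice. Its groups overlap (log2 fold change -0.33, limma adjusted p = 0.784). Adra1a, an adrenergic receptor that raises calcium, stood at 42.5, 61.4 and 33.9 in BA mice and at 44.1, 75.7 and 80.9 in AP mice, and Oprl1, the nociceptin receptor, at 35.0, 16.3 and 15.5 and at 15.6, 23.3 and 11.7. Neither passed the threshold (log2 fold change 0.53 and -0.33, limma adjusted p = 0.717 and 0.819). The nicotinic receptor gene Chrna4 stood at 11.6, 13.3 and 15.5 in BA mice and at 21.3, 10.5 and 52.8 in AP mice. AP replicate 3 was the highest and AP replicate 2 the lowest of all, and the log2 fold change of 0.74 (limma adjusted p = 0.722) was 0.16 without AP replicate 3 and 1.27 without AP replicate 2. The nicotinic genes Chrna1 and Chrnb2 had log2 fold changes of -0.39 and -0.22, and P2rx6, with 12 reads in the BA mice and 34 in the AP mice, of 1.05 (limma adjusted p = 0.655). Exons of Chrnb2 share 16.3% of their bases with those of the listed gene Adar on the opposite strand, and those of Adora1 and P2rx6 share 20.1% and 13.9% with the unlisted genes Mybph and Slc7a4. The libraries were made to keep strand, but the strand setting used in counting was not given in the sources used here, so the part of such partners in these values was not tested.

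Several excitatory and inhibitory receptor genes were widely spread among the AP mice. Grin2b stood at 181, 150 and 176 in BA mice and at 119, 329 and 1447 in AP mice, so that AP replicate 1 lay below all BA mice and AP replicate 3 far above (log2 fold change 1.19 ± 0.75, limma adjusted p = 0.717). Gria3 stood at 63.8, 78.9 and 51.0 in BA mice and at 56.6, 88.4 and 249 in AP mice (log2 fold change 0.75, limma adjusted p = 0.718). Gabra2 stood at 60.6, 46.1 and 90.6 in BA mice and at 64.2, 199 and 277 in AP mice (log2 fold change 1.26, limma adjusted p = 0.616), with the same reserve on its level as above. In all 3 genes AP replicate 1 was within or below the range of BA mice and AP replicate 3 was the highest mouse. The median log2 ratio to the BA mean over the 5 GABA-A receptor genes was -0.23, 1.15 and 1.57 in the AP mice, and over the 4 NMDA receptor genes -0.20, 0.93 and 1.30. The neuronal marker Camk2a was spread in the same way, with 64.9, 98.3 and 69.4 in BA mice and 77.0, 843 and 1401 in AP mice. Astrocyte markers, all 8 of them listed, summed to between 11433 and 16108 in BA mice and to 9121, 50111 and 28333 in AP mice, and the 8 oligodendrocyte lineage markers overlapped, with between 211162 and 271326 in BA mice and between 214640 and 265889 in AP mice. The sums of 4 listed endothelial markers, between 380 and 508 in BA mice and between 369 and 504 in AP mice, and of 2 inhibitory neuron markers, between 29.8 and 74.7 and between 26.5 and 62.1, overlapped as well. The part of these markers in the receptor values was not tested.

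**Figure D5:**
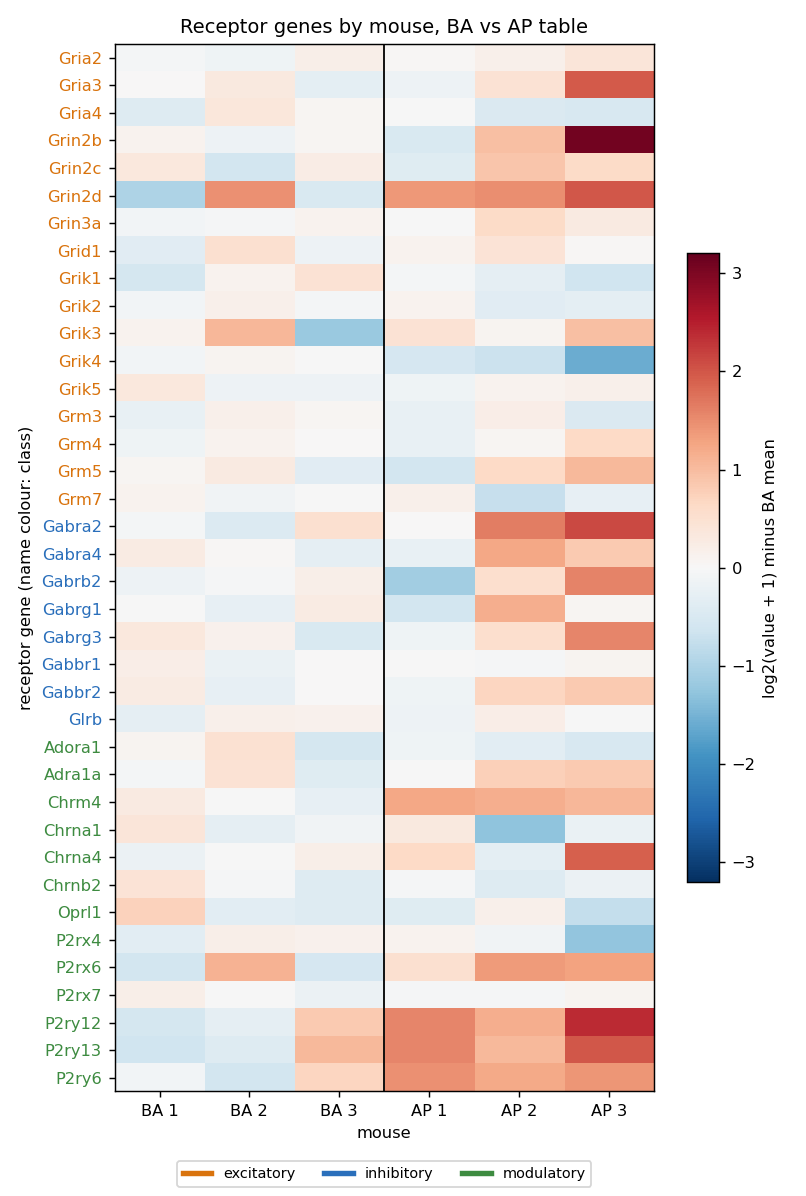
Log2(value + 1) of 38 of the 40 receptor genes minus the mean of the 3 BA mice, for each mouse of the BA vs AP table. The 8 inhibitory genes have a median of -0.15 in AP replicate 1, 0.61 in AP replicate 2 and 0.84 in AP replicate 3, and P2ry12, P2ry13, P2ry6 and Chrm4 are high in all 3 AP mice.

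The 5 kainate receptor genes had a median log2 fold change of -0.18 in AP mice, and 1 of them did not overlap between the groups. Grik4, a high-affinity kainate receptor subunit, stood at 91.5, 103 and 95.2 in BA mice and at 66.8, 59.4 and 31.2 in AP mice. Every AP mouse lay below every BA mouse, with a log2 fold change of -0.94 ± 0.31 (unadjusted p = 0.0143, adjusted p = 0.483 in limma), and without AP replicate 3 it was -0.61. Grik5 stood at a mean of 277 ± 57.3 (SD, n = 3) in BA mice and 284 ± 30.8 in AP mice. Grin2d, with 0, 13 and 1 reads in the BA mice and 11, 19 and 19 in the AP mice, had a log2 fold change of 1.62 (limma adjusted p = 0.532), which depends on the added constant. Its ratio of reads relative to depth was 3.02 with a counting interval from 1.64 to 5.92. Grm3 and Gabbr1 were again the receptor genes with the highest signal per kb in BA mice, 568 and 279, with log2 fold changes of -0.16 (95% interval -0.75 to 0.42) and 0.011 (95% interval -0.48 to 0.51).

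Of the genes that work with these receptors, none was called in AP mice by limma. Of 9 listed auxiliary subunits, 13 scaffold genes of glutamate receptors and 9 of inhibitory receptors, 1 each had an unadjusted p under 0.05 in limma, where 7.77% of all genes did. Gsg1l, an AMPA receptor auxiliary subunit, had the largest log2 fold change among them, 1.86 (limma adjusted p = 0.235), and Kctd12, an auxiliary subunit of GABA-B receptors, had the largest of its list, 1.01 (limma adjusted p = 0.626).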

How the data were processed

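Receptor genes were chosen by a symbol pattern, and the members and lists were chosen with earlier results of these data known. The authors deposited a normalized signal per gene and mouse, in 2 tables that were normalized apart. They scaled libraries by TMM, filtered genes of low count and used ARSyN batch correction, which can reduce the spread between mice. The sources do not say if ARSyN was used for each table. The submitters' processing notes name bcl2fastq 2.20, Salmon 1.2 and GRCm38.p6. Symbols, coordinates and exon lengths were taken from GENCODE M21 of GRCm38; 1 gene of the table with AV mice and 37 of the other had no entry.

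The test was limma 3.58.1 (R 4.3.3), run on log2(value + 1) with every listed gene of a table and no covariate, and p-values were adjusted by Benjamini-Hochberg at 0.05. Fold changes on this scale understate changes of low genes. Replicates are single mice. In the table with AP mice no value is below 2, the level of genes without reads, and 78.3% to 86.2% of the low values sit on a ladder of 1-read steps, which gives a level of 3 reads between 4.13 and 5.68. As not all low values do so, no test for counts was run. The other table shows no steps. The fit was tested on simulated data in which 200 genes were changed by a known log2 fold change. These genes were drawn only from those above a floor of signal in BA mice. A change of 1 was recovered for 0% of them in both comparisons. A change of 2 was recovered for 71.9% in BA vs AV and for 80.95% in BA vs AP. A lack of calls in BA vs AP therefore does not show a lack of smaller changes. In the real BA vs AV data 2934 of 9872 genes were called, many more than the 200 changed in the simulation. The adjusted threshold is then easier to pass, so the simulated rates do not describe BA vs AV.

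Any listed member could be named, but some genes are not reported here. Values of all mice are given for called members that are reported and for the highest member or largest change of a family or class. Further members given with their values, such as Chrm4, P2rx6, Adra1a and Oprl1, and Camk2a, Dlg4, Gphn and the overlapping genes were named after their values were seen. Lists were markers of 6 cell types, auxiliary subunits, scaffolds of excitatory and of inhibitory receptors, and receptors characteristic of microglia. Alternatives were pseudocounts of 8 and 0.5, a group mean of at least 20, median centring, a variance prior following mean expression, removal of the lowest value, a threshold of 0.01, the replicate number as a block, and each mouse left out. Python 3.11.15, pandas 2.3.3, numpy 2.4.6, scipy 1.17.1 and matplotlib 3.10.9 were used. Promoter windows were taken from RefSeq.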

Additional observations from a re-analysis of the deposited data

How the results depend on the processing

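In BA vs AV, 17 receptor genes were called. The count was 18 with a pseudocount of 8, a filter on group means or median centring, 17 with a pseudocount of 0.5 and 21 with the variance prior. Left out in turn, the mice gave counts from 8 to 19 (excitatory, 10 with all mice, from 6 to 11; inhibitory, 5, from 1 to 6; modulatory, 2, from 0 to 2). At an adjusted p under 0.01, 6 remained as a count, with 5 excitatory, 1 inhibitory and 0 modulatory. With the replicate number as a block the count was 7, with 6 excitatory, 1 inhibitory and 0 modulatory. The genes called with the block were Gria3, Grin2b, Grin2d, Grik3, Grm4, Grm5 and Gabra4, and Grik5 was lost. Whether the numbers pair the mice could not be decided. In BA vs AV, deviations of same-numbered mice from their group means correlated at -0.060 and -0.039. The 2 AV mice deviate by equal amounts in opposite directions, so these correlations cannot decide it. In BA vs AP the correlations were 0.020, 0.12 and 0.081, and each mouse correlated best with its own number. In BA vs AP the count was 0 under every alternative run, the block included. Directions reversed there for genes near 0: with median centring, Gabbr1 to -0.015, Glrb to -0.015 and P2rx7 to -0.018. With 1 mouse left out, the log2 fold change ranged from -0.082 to 1.04 for Grik3, -0.036 to 0.21 for Grik5, -0.088 to 0.35 for Grm4, -0.29 to 1.06 for Gabrb2, -0.26 to 0.61 for Gabrg1, -0.097 to 0.12 for Gabbr1, -0.13 to 0.098 for Glrb, -0.081 to 0.0997 for P2rx7, -0.75 to 0.055 for Chrna1, -0.42 to 0.0013 for Chrnb2, -0.58 to 0.029 for Oprl1 and -0.68 to 0.00084 for P2rx4. The causes were not tested. Depth is unknown for BA vs AV, and in BA vs AP it limits Chrm4, Grin2d, Grm4 and P2rx6, with no more than 20 reads over the mice of the lower group.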
